A study of Drosophila melanogaster with 12 samples.

Results

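The genes described here come from the study's list of alternatively spliced (AS) genes: iPLA2-VIA, Ect4, Tsp26A, KrT95D, CG6701, CG3764, CG32809, CG3630 and CG10417. They are 9 of 2000 genes on the AS list, and of 16595 genes on the AS and non-AS lists together. They were chosen by their scores, for a high mean rank over the 6 programs at one or more levels. When AS-list genes were ordered by the number of programs detecting them and then by mean rank, each of the 9 stood among the first 8 at some level. Tl, Adf1, Pka-R2, l(2)gl, G9a, Df31, RpL10Ab and RpS9 did so too and are not among the 9, so this order alone does not give the set. Their high scores are therefore given as a description, with no test.

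The libraries were made in silico to model Drosophila S2 cells, a line of embryonic origin, with no cell being treated. The control group models cells given a non-targeting siRNA, and the other 3 groups model the same line under a PSI siRNA, PSI being a splicing factor. These knockdown groups carry splicing changes of 60%, 40% or 20%, and what the percentage is a share of is not given in the sources used here. Each of the 4 groups had 3 simulated replicates, 12 libraries in all, and every comparison set a knockdown group against the same 3 controls. The deposited tables hold 1 score per gene, program and level for all libraries of a comparison, so the spread between replicates and the read depth are unknown, and the level of PSI itself could not be checked.

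Alternative splicing joins the exons of a gene in more than one way, by skipping an internal (cassette) exon, keeping an intron, or using another donor or acceptor site at an intron's ends. PSI is an RNA-binding protein best known for repressing the splicing of P-element transposase RNA in Drosophila somatic cells. The programs look for such changes in different ways. JUM and MAJIQ compare the use of splice junctions that share an end. rMATS and MISO score events, such as an exon included or skipped. Whippet works on a splice graph of exon parts, and Cufflinks estimates whole transcripts. MISO reports a Bayes factor, the weight of evidence for a difference between conditions.

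The genes were grouped by score and not by function. iPLA2-VIA encodes a calcium-independent phospholipase A2 that acts on membrane phospholipids, and its human counterpart PLA2G6 is known from inherited neurodegeneration. Ect4, now named Sarm, encodes a Toll/interleukin-1 receptor domain protein that drives the degeneration of injured axons. Tsp26A encodes a tetraspanin, a membrane protein that crosses the bilayer repeatedly and organises other proteins there. KrT95D was named as a target of the transcription factor Krüppel and is related to mammalian PACS sorting proteins. CG6701 encodes a predicted helicase of the UPF1-like family, and CG10417 a protein phosphatase of the PP2C family.

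The working name of the set, genes recovered by all 6 programs, holds only in part. Of the 9 genes, 5 were listed in all 18 score tables, as were 66 of the 2000 AS-list genes. The other 4 were each absent from at least 1 MISO table: Ect4 at the 60% level, CG10417 at the 60% and 40% levels, CG3630 at the 40% and 20% levels, and KrT95D at the 20% level. The other 5 programs listed all 9 genes at every level.

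Across the 162 possible scores of the 9 genes, 156 were listed and 133 passed a customary threshold, set at 0.95 for scores that run up to 1 and at a Bayes factor of 10 for MISO. By level, 48 scores passed at 60%, 46 at 40% and 39 at 20%, of 54 possible each. Without MISO, 128 of 135 passed. What varied among the genes was therefore mainly the MISO score at all levels, the MAJIQ and Cufflinks scores at the 20% level, and 1 Cufflinks score at the 60% level.

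JUM gave every one of the 9 genes a score of 1 at every level in the authors' deposited tables, 27 of 27 scores. That is the highest value in the JUM tables and was shared by 561 genes at the 60% level, 518 at 40% and 421 at 20%. Of all genes in the JUM tables, 43.3% passed the threshold at the 60% level, 41.6% at 40% and 38% at 20%. At the 60% level 543 of the 616 AS-list genes that JUM listed scored 1. It was 506 of 612 at 40% and 416 of 611 at 20%. JUM scores thus did not distinguish the 9 genes from each other or between levels.

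rMATS and Whippet were nearly as uniform. All 27 rMATS scores passed the threshold and 24 equalled 1 in the authors' deposited tables, while the share of all rMATS genes that passed was 35.8%, 34% and 29.8% at the 60%, 40% and 20% levels. The rMATS scores below 1 were those of KrT95D (0.999999), CG3630 (0.999501) and CG32809 (0.998338), all in the authors' deposited table for 20%. All 27 Whippet scores passed and 25 equalled 1 in the authors' deposited tables, against 26.4%, 24.7% and 21% of all Whippet genes that passed. The other two were CG3630 (0.997) and CG32809 (0.995), both in the authors' deposited table for 20%. CG32809 and CG3630 were thus the genes below the ceiling in both programs. Among AS-list genes that rMATS listed, 378 of 507 scored 1 at 60%, 341 of 513 at 40% and 218 of 511 at 20%. Among those that Whippet listed it was 757 of 1536, 690 of 1544 and 491 of 1551.

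**Figure D1:**
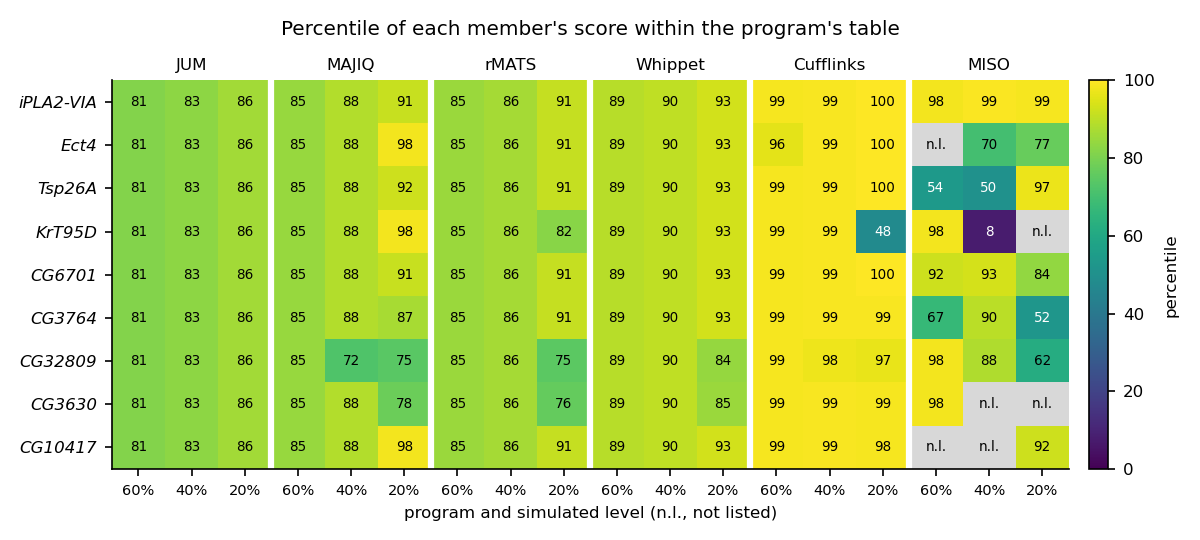
Percentile of each gene's score among the genes that the program's table lists, by program and level (columns) and gene (rows); tied genes share the middle of their tie, and n.l. marks a gene that the table does not list. The JUM columns hold 1 value each because all 9 genes share the top score, and the lowest cell is KrT95D with MISO at the 40% level (7.62).

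Because so many genes share the top scores, the percentiles of the 9 genes are set largely by ties. A score of 1 stood at percentile 81.5 of the JUM table at the 60% level and at 86.0 at the 20% level. The top Cufflinks score stood at 98.6 and 99.7. Averaged over the programs that listed a gene, the percentile at the 60% level ran from 82.1 for Tsp26A to 89.5, which iPLA2-VIA, KrT95D, CG32809 and CG3630 shared. At the 20% level it ran from 79.7 for CG32809 to 93.4 for iPLA2-VIA. The median over the 9 genes was 88.5 at the 60% level, 89.4 at 40% and 90.9 at 20%. The rise towards 20% came with fewer genes at the ceiling, and a higher percentile there is not a higher score.

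MISO scores differed widely among the genes. At the 60% level 4 of them had a Bayes factor of 1e+12 in the authors' deposited table, which is the highest value it holds: iPLA2-VIA, KrT95D, CG32809 and CG3630. That table gave this value to 12 of 329 genes, 7 of them on the AS list. The same 4 were the only members past the threshold of 10 at that level, where 5.47% of all MISO genes passed. The other 3 members listed there had Bayes factors in the authors' deposited table of 2.06 for CG6701, 0.74 for CG3764 and 0.47 for Tsp26A. No member had a value between 2.06 and 1e+12, so at the 60% level the MISO scores of the 7 listed members fell into a capped and a low set.

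At the 40% level only iPLA2-VIA passed, with a Bayes factor of 187.52 in the authors' deposited table, where 1.52% of all MISO genes passed. CG32809 went to 1.22 and KrT95D to 0 in the authors' deposited table for 40%, both from the cap at 60%. The KrT95D value was the lowest a Bayes factor can take, and 278 genes of that table scored higher. The other listed members lay at 1.74 for CG6701, 1.28 for CG3764, 0.72 for Ect4 and 0.33 for Tsp26A in the authors' deposited table.

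No member passed at the 20% level, and 0.635% of all MISO genes did. The highest was again iPLA2-VIA with 5.16, followed by Tsp26A with 2.44 and CG10417 with 1.34, in the authors' deposited table. CG6701 (0.95), Ect4 (0.8), CG32809 (0.5) and CG3764 (0.37) lay below 1 in the authors' deposited table, where the evidence leans to no difference. Of the 5 members listed at all levels, iPLA2-VIA, CG6701 and CG32809 fell at each step from 60% to 20%. Tsp26A was highest at the 20% level and CG3764 at the 40% level. No Bayes factor of Tsp26A, CG3764 or CG6701 passed the threshold at any level, and the spread between replicates is unknown. Their order over the levels is therefore a description only.

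**Figure D2:**
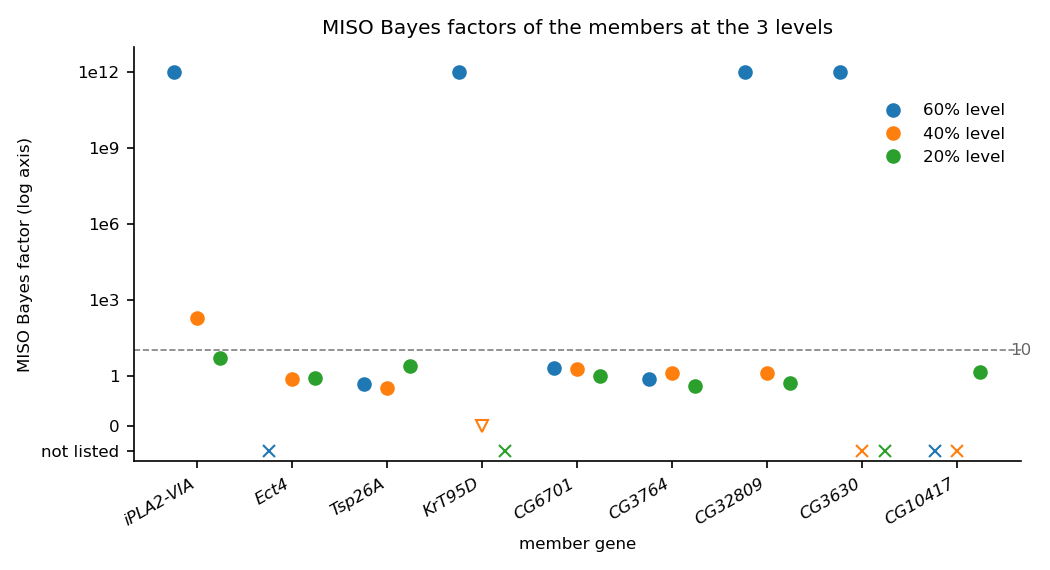
MISO Bayes factor of each gene (log axis, with values of 0 as open triangles and tables that do not list the gene as crosses on separate lines below it) at the 3 levels; the dashed line is the threshold of 10. Points stand at 1e12 for 4 genes at the 60% level, and iPLA2-VIA is the only gene above the line at the 40% level (187.52).

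MAJIQ scores were at 1 for all 9 genes at the 60% level in the authors' deposited table, as for 616 genes in all, 33% of the table's genes being past the threshold. At the 40% level 8 genes were at 1 and CG32809 was at 0.999995 in the authors' deposited table, with 30.9% of all genes past the threshold. At the 20% level the genes separated, in a table where 20.1% passed and only 73 genes were still at 1. Ect4, KrT95D and CG10417 were among those 73 in the authors' deposited table. Tsp26A (0.999997), CG6701 (0.999989), iPLA2-VIA (0.999988) and CG3764 (0.99871) stayed above the threshold in the authors' deposited table. CG3630 (0.886643) and CG32809 (0.696861) fell below it in the authors' deposited table, and they were the only members that did. The same pair had the lowest Whippet and rMATS scores at that level. Among AS-list genes that MAJIQ listed, 580 of 734 scored 1 at 60%, 446 of 738 at 40% and 69 of 729 at 20%.

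Cufflinks has a ceiling that itself moved: the highest score in the authors' deposited tables was 0.999741 at the 60% level, 0.999637 at 40% and 0.998743 at 20%. At 60% 8 members stood at the ceiling, at 40% 8 and at 20% 4. Of the 1822 AS-list genes that Cufflinks listed, 398, 302 and 87 stood there. The share of all Cufflinks genes past the threshold was 3.56%, 2.9% and 1.36%, against 8, 9 and 5 of the 9 members. iPLA2-VIA, Tsp26A and CG6701 stood at the ceiling at every level. Their lower scores at 20% were thus the ceiling's own move.

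The remaining members left the Cufflinks ceiling in different ways. CG3764 stayed past the threshold at the 20% level with 0.994973 in the authors' deposited table. CG3630 (0.935653) and CG10417 (0.918899) ended just under it, and CG32809 ended at 0.361863, in the authors' deposited table. KrT95D went from 0.999741 at 60% and 0.999637 at 40% to 0 at 20% in the authors' deposited tables, the score of 13784 of 14361 genes there. Ect4 ran the other way: it scored 0.745668 at the 60% level, 0.999637 at 40% and 0.998743 at 20% in the authors' deposited tables. It was below the threshold at the largest shift alone and at the ceiling at the others.

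**Figure D3:**
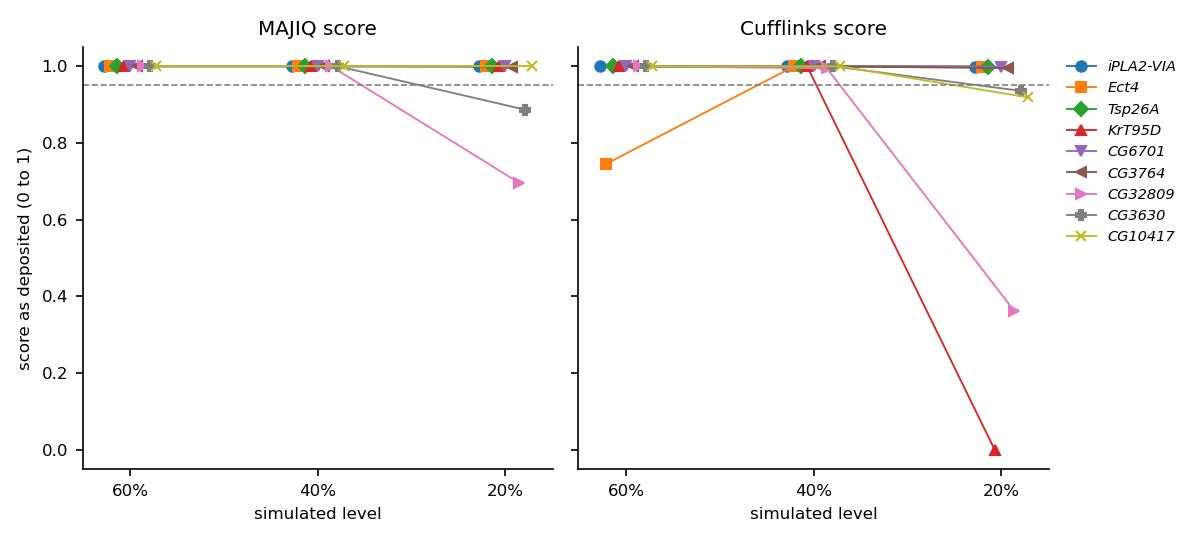
MAJIQ (left) and Cufflinks (right) scores of the 9 genes, as deposited, at the 3 levels, with 1 line per gene and points set slightly apart along the horizontal axis; the dashed line is the threshold of 0.95. CG32809 and CG3630 drop with MAJIQ at the 20% level, while with Cufflinks KrT95D drops to 0 there and Ect4 is low at the 60% level (0.745668).

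Taking the programs together, 4 members passed the threshold in all 6 at the 60% level: iPLA2-VIA, KrT95D, CG32809 and CG3630. They were 4 of the 7 genes that did so among 209 that all 6 programs listed, a share of 3.35%. At the 40% level iPLA2-VIA was 1 of 2 such genes among 208 (0.962%), and at the 20% level there was none among 196 (0%). In the 5 programs other than MISO, 8 members passed at the 60% level (all but Ect4), all 9 at 40%, and 5 at 20% (iPLA2-VIA, Ect4, Tsp26A, CG6701 and CG3764). The shares over all genes that these 5 programs listed were 27.3% of 987, 23.8% of 982 and 8.99% of 990. Every gene that passed in all 5 was on the AS list. At the 60% level it was 269 of the 411 AS-list genes that these programs listed. It was 234 of 409 at 40% and 89 of 411 at 20%. Of the 209, 208 and 196 genes that all 6 programs listed, 88, 86 and 85 were on the AS list.

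Passing in these 5 programs at every level were 4 members, iPLA2-VIA, Tsp26A, CG6701 and CG3764. They were 4 of 82 such genes, all on the AS list, a share of 8.52% of the 962 genes that all 15 tables of these programs list. Of the 962 genes, 400 were on the AS list. The other 5 members each missed the threshold somewhere. Ect4 missed it with Cufflinks at the 60% level, KrT95D and CG10417 with Cufflinks at the 20% level, and CG32809 and CG3630 with both MAJIQ and Cufflinks at the 20% level.

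The order of AS-list genes at the edge of the choice was close. Over all 16595 genes, with unlisted genes tied last, l(2)gl held place 8 at the 60% level with a mean percentile of 98.606, and Sap47 place 9 with 98.602. CG32809, CG3630, KrT95D and iPLA2-VIA tied there for the first places at 98.618 together with Tl. At the 40% level CG3764 stood in place 7 (98.793), Df31 in place 8 (98.790) and srp in place 9 (98.786). At the 20% level Ect4 was first (99.27) and RpS9 and RpS15Aa held places 8 and 9 (99.09 and 99.07). KrT95D, among the first at 60%, stood in place 318 at the 20% level, and CG3630 in place 234. Ect4, first at 20%, stood in place 296 at the 60% level, where MISO did not list it.

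At a 5% false positive rate the order counts every gene that MISO lists as detected. KrT95D was therefore counted as detected by all 6 programs at the 40% level with its Bayes factor of 0. Cut-offs were low in other programs too, at the 60% level 5.9e-05 for Cufflinks, 0.00148 for MAJIQ and 0.00163 for rMATS. Unlisted genes of the non-AS list counted as below the cut-off, so detection here is a lenient mark. When percentiles were taken within the genes that each table lists, RpS15Aa held the first place at the 20% level, and Ect4 moved to place 9. Genes of the non-AS list rarely reached the members' means over all genes. The members were chosen for high mean ranks, and unlisted genes are tied last in these means, so this is no separate evidence. None had such a mean percentile at or above that of the 5 members listed in all tables at any level. For Ect4 at the 60% level 11 did, and for KrT95D at the 20% level 152 did. For CG10417 11 did at 60% and 8 at 40%, and for CG3630 8 at 40% and 7 at 20%. MISO did not list these genes at those levels.

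The structure of the genes was not itself a criterion in choosing them. It comes from the Ensembl annotation of the BDGP6.54 assembly and not from the build dm3 that the submitters' processing notes name, and which of the annotated alternatives was shifted is not given in the sources used here. All 9 are protein-coding, with 2 to 10 annotated intron chains (distinct combinations of introns) and a median of 4. The median was 1 over 1977 AS-list genes found in the annotation, and 4 over the 393 AS-list genes that every table but those of MISO listed. The median of the members equals that of the AS-list genes that the 5 programs listed at every level. Of the 1977 genes 41.3% had 2 or more chains, and of the 393 genes 99.2%. Structure thus went along with being listed and is not independent of the choice.

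iPLA2-VIA lies on arm 3L (9860217 to 9864349, minus strand) with 4 intron chains, and Ect4 on 3L (8063874 to 8108897, plus strand) with 9. Tsp26A lies on 2L (6000228 to 6003738, plus) with 3 chains and KrT95D on 3R (23997538 to 24031827, minus) with 5. CG6701 lies on 2R (13972984 to 13980165, minus) with 4 and CG10417 on 2R (5360331 to 5363104, minus) with 2. CG3764 lies on 3L (16994717 to 17012565, minus) with 3 chains. CG32809 and CG3630 lie on X, the first at 1673110 to 1692768 (minus) with 10 and the second at 2162196 to 2172281 (plus) with 4. The gene spans run from 2774 bp for CG10417 to 45024 bp for Ect4.

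**Figure D4:**
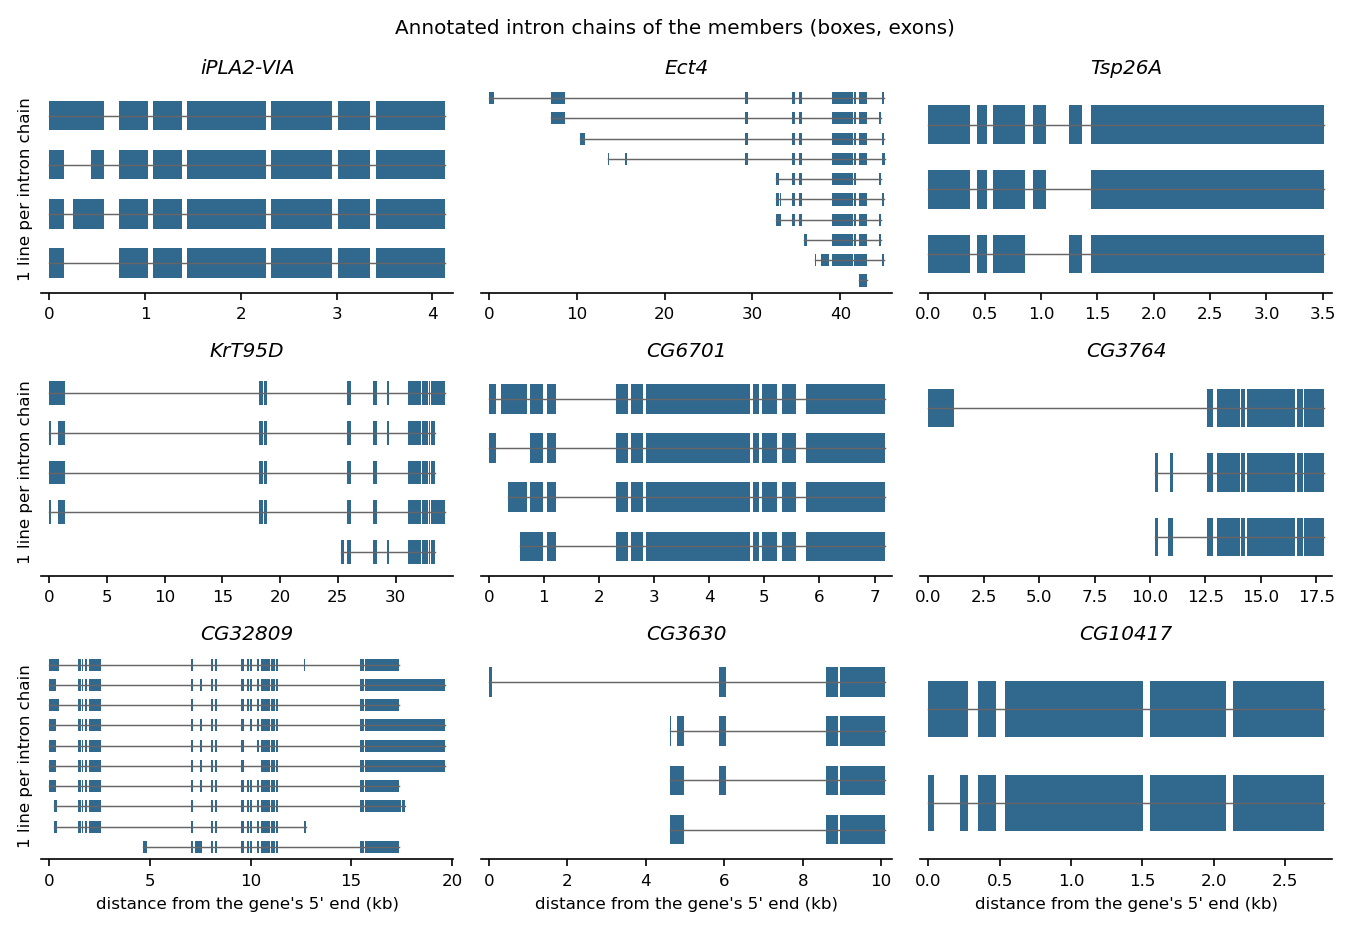
Annotated intron chains of the 9 genes, 1 line per chain, with exons as boxes and distance from the gene's 5' end in kb (a scale of its own for each gene). The chains of iPLA2-VIA and CG10417 differ near the 5' end, those of Tsp26A at 2 internal exons, and CG32809 has the most (10); the single box of Ect4 is a transcript with no intron.

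Cassette exons, internal exons that lie within an intron of another transcript, were annotated in 8 of the 9 genes, 20 exons of 44 to 934 nt in all. Of the 20, 9 were coding over their whole length, 8 in part and 3 were untranslated, and 10 had a length that is a multiple of 3. Tsp26A has 2 adjacent coding cassette exons of 111 and 117 nt. Of its 3 transcripts 1 holds both and the others hold one each, and both lengths are multiples of 3. CG32809 has 6, of which 5 are coding throughout (44 to 93 nt). KrT95D has 1 coding cassette exon of 126 nt, included in 3 and skipped in 2 of its 5 transcripts. In Ect4 a coding exon of 934 nt was skipped in 1 of 10 transcripts.

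In iPLA2-VIA, CG6701 and CG10417 the annotated cassette exons and retained introns lie near the 5' end. iPLA2-VIA has overlapping forms of a partly coding exon (138 and 323 nt) behind retained introns of 93 and 278 nt that are untranslated. CG6701 has an untranslated cassette exon of 467 nt. CG10417 is the member without a cassette exon, and its 2 transcripts differ by an untranslated intron of 177 nt that 1 of them keeps. CG10417 had a score of 1 with JUM, MAJIQ, rMATS and Whippet at every level in the authors' deposited tables. MISO listed it at the 20% level only. In CG3764 and CG3630 the cassette exons lie further from the 5' end of the gene, measured from its outermost transcript start. CG3764 has overlapping forms of a partly coding exon, 129 and 232 nt long, that begin 10921 and 10818 bp from the 5' end of a gene spanning 17849 bp. CG3630 has an untranslated exon of 163 nt at 4809 bp and a partly coding one of 165 nt at 5873 bp, in a span of 10086 bp. The CG3764 exon follows the opening exon of transcripts that start at 10205 bp. It is skipped only by the transcript that starts at the gene's 5' end. The 163 nt exon of CG3630 follows an opening exon at 4613 bp, and only the transcript starting at the gene's 5' end skips it. Both thus lie near the 5' end of the transcripts that hold them.

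Of the AS-list genes found in the annotation, 12.7% had a cassette exon, as did 47.3% of the 393 that every table but those of MISO listed. It was 55.4% of 65 AS-list genes listed by all 18 tables, and 40.7% of 81 past the threshold in every table but those of MISO. Retained introns were annotated in 7 of the 9 members, against 11.9%, 31.3%, 49.2% and 28.4% of the same sets. Acceptors that join more than 1 donor, which cassette exons also give rise to, were found in 8 members and in 27.6%, 78.9%, 78.5% and 74.1% of the sets. These are descriptions of few genes chosen with scores in view. The sets share members with the 9 genes, and no test was made.

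**Figure D5:**
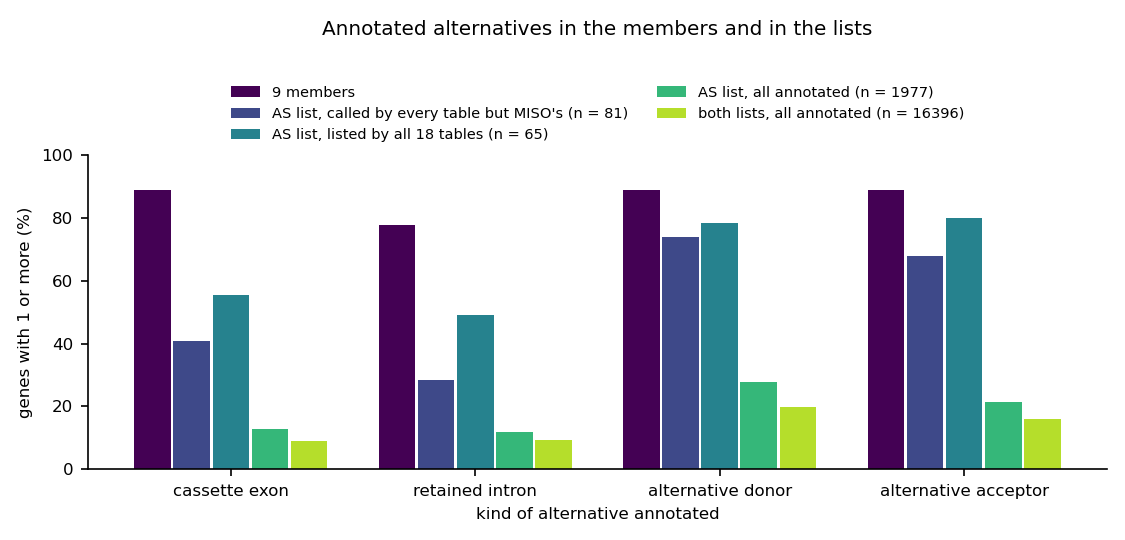
Share of genes with 1 or more annotated cassette exons, retained introns, acceptors joined to more than 1 donor (alternative donor) and donors joined to more than 1 acceptor (alternative acceptor), for the 9 members and for 4 larger sets that contain some or all of them. Cassette exons were annotated in 8 of 9 members and in 12.7% of AS-list genes. It was 55.4% of the AS-list genes listed by all 18 tables, and 40.7% of those past the threshold in every table but those of MISO.

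Other annotated genes overlap 6 of the members, and whether the programs' read counting used strand is not given in the sources used here. One such overlap is exact: mir-3641, a microRNA gene of 69 bp on X (2171086 to 2171154), spans 1 intron of CG3630 from end to end, on the same strand. It was picked out after its values were seen. mir-3641 is on the non-AS list, and at the 60% level it had a MISO Bayes factor of 1e+12 in the authors' deposited table, the value of CG3630. Both were listed by MISO at the 60% level only. In the Cufflinks tables mir-3641 scored 0 at all 3 levels, while CG3630 scored 0.999741, 0.999637 and 0.935653, in the authors' deposited tables. The other overlapping genes that the tables listed were all on the non-AS list, which holds 14595 of the 16595 genes. None passed a threshold. All were in the Cufflinks tables, where 3.56%, 2.9% and 1.36% of all genes passed at 60%, 40% and 20%. Few passes are thus usual there, and the count is a description. The highest of the other overlapping genes was Gal, at 0.848874 with Cufflinks in the authors' deposited table for 20%. Gal is the beta-galactosidase gene that overlaps Tsp26A on the other strand.

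The AS-list genes with the most similar score patterns outside the set were sought among the 61 non-members that all 18 tables list, by the mean absolute difference in percentile over the tables listing both. The closest pair was CG10417 and RpS15Aa, a ribosomal protein gene, which differed by 0.446 percentile points over 16 tables. iPLA2-VIA was closest to Pka-R2, a regulatory subunit of protein kinase A (0.879 points, 18 tables), and CG6701 and Ect4 to l(2)gl, a cell polarity gene (1.09 points over 18 tables and 1.5 over 17). Tsp26A was closest to RpS15Aa (1.56, 18 tables), CG3764 to Sap47 (2.05, 18 tables) and CG3630 to CLIP-190 (1.5, 16 tables). CG32809 was closest to tay (3.41, 18 tables) and KrT95D to bif (5.23, 17 tables), so KrT95D had the least close match of the 9 among these genes. Some members had a smaller difference from another member than from any of the 61, but in each case over fewer tables. Tsp26A differed from CG10417 by 0.722 points and CG32809 from CG3630 by 1.52, each over 16 tables. Ect4 and CG6701 differed from CG10417 by 1.22 and 1.04 points over 16 tables, and KrT95D from CG10417 by 3.97 over 15. Many of these tables hold the same ceiling score for both genes of a pair. The tables left out were all MISO tables, such as those at 60% and 40% for CG10417. Tsp26A had MISO percentiles of 54.0 at 60% and 50.5 at 40%. These count in its difference from RpS15Aa but not in that from CG10417. Which gene is closest over the same tables was not tested.

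Relatives of the members are given as a description, since the members were picked for high scores and several programs do not list the relatives. Apart from the tetraspanins, taken by symbol, the relatives come from lists chosen by hand, which may be incomplete. Of 35 tetraspanin genes in the lists, 5 were on the AS list: Tsp26A, Tsp29Fb, Tsp39D, Tsp42Ep and Tsp96F. At the 60% level Tsp29Fb passed the threshold in all 4 programs that list it. Tsp96F, Tsp39D and Tsp42Ep were listed by Whippet and Cufflinks only, and Tsp96F passed in both while the other two passed in neither. With Cufflinks, the authors' deposited tables gave Tsp29Fb 0.990297 at 60% and 0.462178 at 20%. Of 12 PP2C phosphatase genes, CG10417, CG17746 and Pp2C1 were on the AS list. At the 60% level CG17746 passed in 3 of the 4 programs that list it. Pp2C1 was listed by Whippet and Cufflinks only and passed with Whippet.

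Of the 3 patatin-like phospholipase genes looked up (iPLA2-VIA, sws and bmm) only iPLA2-VIA was on the AS list. Of the 3 UPF1-like helicase genes looked up (CG6701, armi and Upf1) only CG6701 was. Of 4 axon degeneration genes in the lists, Ect4 and hiw, a ubiquitin ligase that promotes axon degeneration, were on the AS list. hiw was listed by Whippet and Cufflinks only, and was past the threshold with Whippet at every level. No gene of these 5 families on the non-AS list passed a threshold at any level. No gene of the whole non-AS list passed in all 5 programs other than MISO at once, which is a stricter mark. Single programs did pass genes of the non-AS list: of 616 genes with a MAJIQ score of 1 at 60%, 580 were on the AS list. The share of the non-AS list that passed in any program was not computed, so the family count is no result about the families.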

How the data were processed

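The data are score tables from computer-simulated libraries, 3 control and 3 for each of 3 knockdown levels. Of software, STAR (2.5.4b) and Cufflinks appear in the submitters' processing notes, with dm3 as build and no roles. The authors deposited 18 tables (6 programs, 3 levels), each giving per gene a score and a class label, beside 2 gene lists (AS and non-AS). Each score is used as deposited by the authors, higher being read as stronger evidence. The scale was read from the values, and how a gene's score was taken from its events is not given in the sources used here. Between 8 and 10 negative rMATS scores per level were kept at the bottom. The class label, another deposited column by the authors, matched the lists for every gene.

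Percentiles were computed within each table, tied genes sharing the middle of their tie. Detection at a 5% false positive rate took scores that at most 5% of the non-AS list reach. Of 16595 symbols, 16396 were found in Ensembl's BDGP6.54 annotation (release 115), 12402 as the current name and 3994 as a unique older one. The members, gene families and thresholds were chosen with earlier results of these data known. The genes named are the members, the places up to 9, the closest pattern for each member, and AS-list members of the families. No test was made, since the members were chosen on these scores. Percentiles were tested on small tables with known answers. Python 3.11.15, numpy 2.4.6 and matplotlib 3.10.9 were used.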

Additional observations from a re-analysis of the deposited data

How the results depend on the processing

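Of 76 alternative values, 66 kept within 1.5 times the main count or within 1 SD over the 9 genes, and 10 did not. Leaving out MISO raised the members past the threshold in all programs from 4 to 8 at the 60% level, from 1 to 9 at 40% and from 0 to 5 at 20%. A looser threshold (0.9 and a Bayes factor of 5) gave 1 at the 20% level. Percentiles over all genes of both lists put the median over members at 98.6, 98.7 and 99.1 for the 60%, 40% and 20% levels, and the lowest rank for ties at 78.3, 78.8 and 85.4, against 88.5, 89.4 and 90.9; both follow from how ties and unlisted genes are placed. Leaving out any other program, stricter thresholds and protein-coding transcripts alone moved no value beyond those limits. No paired analysis was possible because each table pools the libraries of a comparison, and for the same reason no replicate could be left out.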
